A study of Gallus gallus with 8 samples.

Results

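The subunits of the neuronal nicotinic acetylcholine receptor were followed in the retina of chicks that wore positive lenses. The genes were CHRNA2 to CHRNA8 and CHRNB2 to CHRNB4, and every probe set whose platform gene symbol was one of these 10 was taken. Of the 13009 genes that the array names by a probe set of their own, these 10 were represented by 13 probe sets, out of 38439 tested. CHRNA4, CHRNB2 and CHRNB4 had a pair of probe sets each and are called by the brighter and the dimmer one of the pair, and the 7 other genes had a single probe set. Messenger RNA from the pooled retinas of both eyes of a chick was hybridized to 1 Affymetrix Chicken Genome array per animal. Each of the 4 positive lens-treated chicks had +6.9 D lenses on both eyes during 24 h, and the 4 control chicks had none. All 8 were White Leghorn chicks labelled as male and were 9 days old when the lenses were fitted. One protocol text, with velcro rings glued on under diethylether the day before, is attached to all 8, and it does not say separately whether control chicks carried rings. Lenses of this kind place the image in front of the retina, and no refraction or eye length was measured in these animals.

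Nicotinic receptors are cation channels that open when acetylcholine binds. In the retina acetylcholine is released by starburst amacrine cells, and many amacrine and ganglion cells carry receptors for it. In mixed receptors the alpha subunits CHRNA2, CHRNA3, CHRNA4 and CHRNA6 bind acetylcholine together with CHRNB2 or CHRNB4. CHRNA7 and CHRNA8 can form channels without a beta subunit, and CHRNA8 is known from birds. CHRNA5 and CHRNB3 are accessory subunits that join mixed receptors without a binding site of their own. In mice CHRNB2 is needed for the cholinergic waves of the developing retina. Nicotinic antagonists have been given to chicks in studies of eye growth.

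The deposited values are intensities after GC-RMA normalization, a method that corrects each probe for binding expected from its base composition. They are given here as log2, so that a difference of 1 is a doubling. Between 53.4% and 53.8% of the probe sets of an array lay below an intensity of 16, which is 4 on the log2 scale. The median intensity of an array, before log2, lay between 10.8 and 11.0. A probe set with a mean below 16 is called dim. An intensity also depends on the probes, so levels were compared between groups for the same probe set and not between subunits. In pooled retina, fewer cells that express a gene and less RNA per cell cannot be told apart.

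Before the results, 3 features of the arrays bear on them. The first is sex-linked signal. Of 39 W-linked probe sets, 17 were lower by more than 1 (log2) in control chicks 2 and 4 than in the other 6 chicks. Their mean was 3.57 in control chick 2 and 3.04 in control chick 4, against 7.55 to 7.84 in the other 6. The W chromosome belongs to females in birds, so 6 arrays went against the label male. The members CHRNA6, CHRNA8 and CHRNB3 lie on the Z chromosome, and the difference of each measurable member is therefore also given without control chicks 2 and 4. The second feature is handling: all positive lens-treated arrays were washed on one fluidics station and scanned first, and all control arrays were washed on another and scanned later, so station, scan order and lens treatment cannot be told apart. The third is tissue. Markers of the retinal cell classes were measured, while none of the probe sets for muscle, lens or erythrocytes had a mean of at least 16, although the hemoglobin gene HBA1 reached 4.95 in positive lens-treated chick 1. Of 5 pigment epithelium genes RPE65 and MITF were not dim, while TYR, PMEL and MLANA were dim. The summed intensity of the 5 was 478 to 809 in positive lens-treated chicks and 608 to 1590 in control chicks. The choroid and sclera markers, of which only COL2A1 was not dim, summed to 197 to 254 in positive lens-treated chicks and 226 to 286 in control chicks. The summed intensity of 5 photoreceptor genes was 32796 to 37700 in positive lens-treated chicks and 40568 to 44883 in control chicks. Without GNAT2, the cone transducin, it was 29132 to 32296 in positive lens-treated chicks and 28142 to 34360 in control chicks, so that without this gene the ranges overlapped. The part of these cells in the results below was not tested.

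Of the 13 probe sets, 11 had a mean intensity of at least 16, and at least 1 of these belonged to every gene except CHRNA2. CHRNA2 measured 3.15, 3.83, 3.16 and 3.16 in positive lens-treated chicks and 2.98, 3.15, 3.15 and 3.08 in control chicks. The dimmer CHRNA4 probe set lay between 2.20 and 2.22 in all 8 chicks. Neither of these was measurable at this level of signal.

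**Figure D1:**
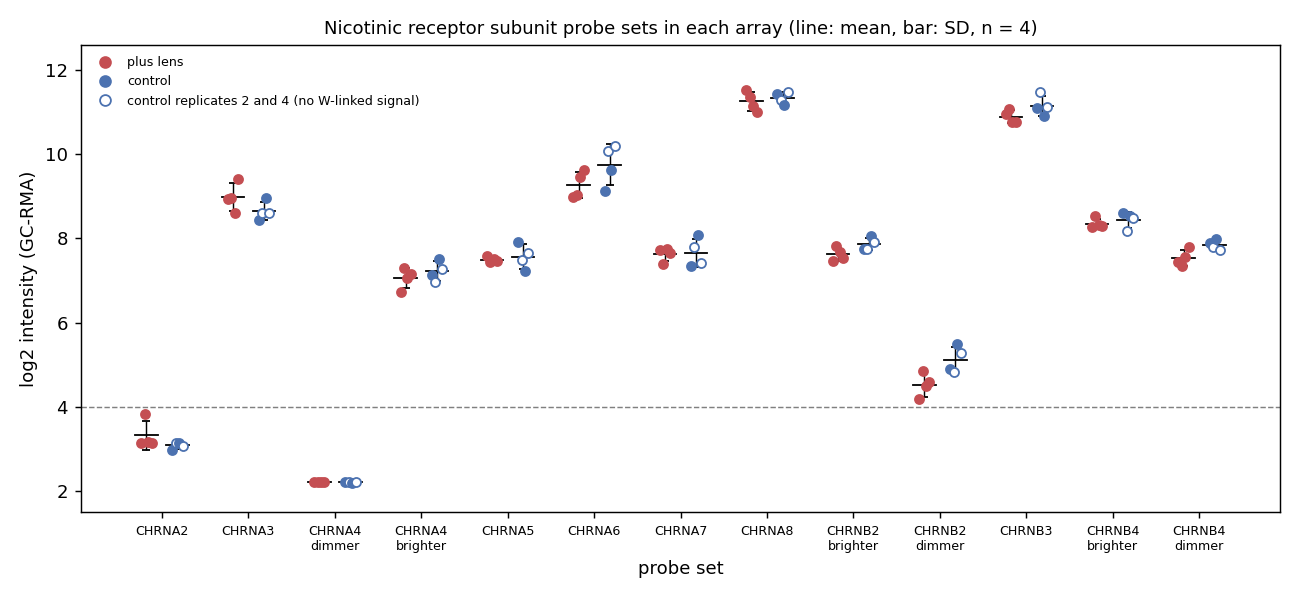
Log2 intensity (vertical axis) of each of the 13 probe sets in each array, positive lens-treated chicks left of control chicks, with the mean as a line and the SD as a bar (n = 4 each). Open circles are control chicks 2 and 4, which had no W-linked signal, and the dashed line is an intensity of 16. The groups overlap in every probe set.

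No subunit passed the test between positive lens-treated and control chicks. With limma, p-values adjusted over all probe sets, a threshold of 0.06 and a fold change of at least 1.5, 0 of 13 probe sets were called, against 0% of all probe sets, and the adjusted p of the members lay between 0.979 and 0.998. The methods' t-test on the same values also called 0 of 13, against 0% of all. At an unadjusted p under 0.05 with the same fold change 1 of 13 passed, the dimmer CHRNB2 probe set, against 0.421% of all probe sets, or 0.193% with the lower value in positive lens-treated chicks. Of the probe sets that were not dim 0.763% passed, and 0.334% with the lower value in positive lens-treated chicks. With the methods' t-test the dimmer CHRNB2 probe set passed as well, against 0.343% of all and 0.63% of those that were not dim. Without the fold threshold 3 of 13 had an unadjusted p under 0.05 and all 3 were lower in positive lens-treated chicks, namely both CHRNB2 probe sets and the dimmer CHRNB4 probe set. Of all probe sets 4.53% passed that rule, and 2.03% passed it with the lower value in positive lens-treated chicks. Among those that were not dim, 8.75% passed it, and 3.88% with the lower value, beside 3 of the 11 members that were not dim. The methods' t-test gave 2 of 13 at that level, against 3.63% of all and 6.98% of those that were not dim.

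The log2 fold change was negative for 10 of 13 probe sets, against 44.2% of all probe sets. Among the 11 that were not dim it was negative for 10, against 46.4% of those that were not dim in the whole table, and CHRNA3 was the one above 0. The median over the 13 was −0.10, beside 0.00 over all 38439. Without control chicks 2 and 4 the log2 fold change was negative for 10 of 13, against 34% of all probe sets, and the median over the 13 was again −0.10. All 10 were not dim, while the 34% includes the dim probe sets. The share among those that were not dim was not counted without these chicks, so no growth of the excess can be read from the 34%. No member had groups that did not overlap, against 2.86% of all probe sets. The residual SD of the 11 ran between 0.154 and 0.409, and its median of 0.211 stood beside 0.173 for all probe sets that were not dim.

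**Figure D2:**
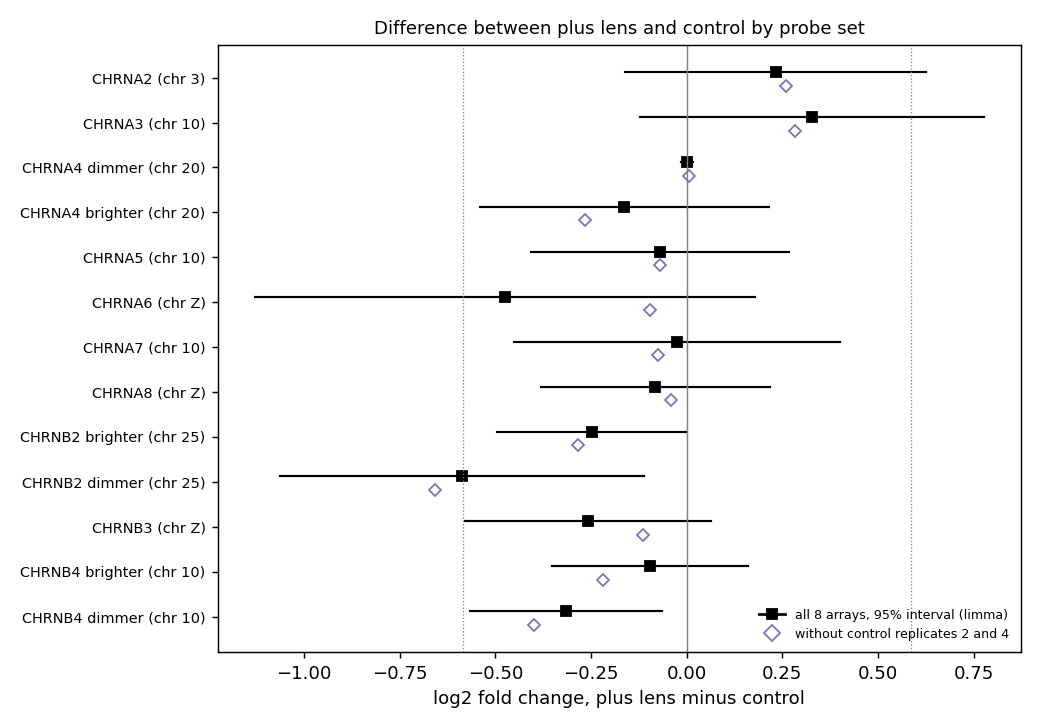
Log2 fold change, positive lens-treated minus control (horizontal axis), of each probe set with its 95% interval from limma over 8 arrays (squares and bars) and without control chicks 2 and 4 (open diamonds). The dotted lines mark a 1.5-fold difference. The dimmer CHRNB2 probe set lies at −0.59, and CHRNA6 moves to −0.10 without the 2 control chicks.

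CHRNB2 (gene ID 395605, chromosome 25), the beta subunit of the most common mixed receptors of the brain, was measured by both of its probe sets. The study had picked this gene from the same arrays for follow-up by PCR, so a difference here is not independent evidence of its direction. The brighter probe set measured 7.46, 7.81, 7.69 and 7.53 in positive lens-treated chicks and 7.75, 7.76, 8.07 and 7.91 in control chicks. Of the 4 positive lens-treated chicks 3 lay below every control chick, and chick 2 lay inside the control range. The mean was 7.62 ± 0.16 in positive lens-treated chicks and 7.87 ± 0.15 in control chicks (SD, n = 4 each), which is a log2 fold change of −0.25 (SE 0.10). This is 1.19-fold lower, and limma's 95% interval for the log2 fold change was −0.50 to −0.001.

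The dimmer probe set measured 4.18, 4.87, 4.50 and 4.58 in positive lens-treated chicks and 4.89, 4.83, 5.49 and 5.27 in control chicks. Again 3 of the 4 positive lens-treated chicks lay below every control chick, and chick 2 lay between control chicks 2 and 1. The geometric mean intensity was 23.1 in positive lens-treated chicks and 34.8 in control chicks, both close to the 16 below which over 53% of an array lay. This is a log2 fold change of −0.59 (SE 0.20, 95% interval −1.06 to −0.11), or 1.50-fold lower, which is the fold threshold itself. Its unadjusted p was 0.0226 with limma and 0.0314 with the methods' t-test, and its adjusted p was 0.979. With single chicks left out the log2 fold change lay between −0.70 and −0.47, and it no longer met the unadjusted rule without positive lens-treated chick 1 or 3 or without control chick 3 or 4. Without control chicks 2 and 4 together it was −0.66 (SE 0.26) in the dimmer and −0.29 (SE 0.14) in the brighter probe set.

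Both CHRNB2 probe sets ranked the chicks alike. Each was lowest in positive lens-treated chick 1 and highest in control chick 3. Over the 8 arrays Pearson's r was 0.952 (exact permutation p = 0.000967, adjusted over 8 relations 0.00774) and Spearman's rho was 0.905 (exact permutation p = 0.00456, adjusted 0.0365). Without those 2 chicks r was 0.850, and r of the deviations from the group means was 0.912. The permutation tests of r and rho, here and below, ran over all 8 arrays without regard to group. A group difference shared by both probe sets therefore enters their p, and the deviations were not tested. Both probe sets report the same gene, but an r of this size was not particular to them. Among the probe sets of other genes, FYN (r = 0.983), CAMK2G (r = 0.975) and ACOT7 (r = 0.968) followed the brighter one more closely. PPP3CB (r = 0.955) did so for the dimmer one.

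The 2 probe sets differed in the size of the difference. The brighter minus the dimmer one was 3.29, 2.95, 3.19 and 2.94 in positive lens-treated chicks and 2.86, 2.92, 2.58 and 2.64 in control chicks, with no overlap. The mean was 3.09 ± 0.17 in positive lens-treated chicks and 2.75 ± 0.17 in control chicks (SD, n = 4 each), a difference of 0.34 (SE 0.12). The exact two-sided permutation p was 0.0286, the smallest that 4 against 4 chicks can give, and 0.0367 when adjusted over the 9 CHRNB2 comparisons. With 16 added to each intensity before log2 the difference was 0.145 and did not pass (adjusted p of 0.11). Without control chicks 2 and 4 it was 0.37.

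CHRNB2 was then set against the alpha subunits it pairs with, as a difference of log2 intensities within each array. A change of this difference between groups says that a pair of probe sets did not shift by the same amount, whatever their levels. The comparisons share the CHRNB2 values and are not independent of each other. Of the 8 comparisons, 6 had groups that did not overlap and an adjusted p of 0.0367 (exact two-sided permutation p = 0.0286 each), all with CHRNB2 lower relative to its partner in positive lens-treated chicks. Of these 6, 2 were against the dim CHRNA2 and 2 against a CHRNA4 mean that includes its dim probe set. Those against CHRNA2 hold the CHRNB2 difference (−0.25 and −0.59) and a background difference of 0.23 in CHRNA2. Those against CHRNA4 hold only part of the CHRNA4 differences. With the brighter CHRNA4 probe set alone the brighter CHRNB2 probe set overlapped. With intensities below 16 raised to 16, all 6 missed the threshold, with adjusted p of 0.0514 to 0.11. The values against CHRNA3 (−0.576 and −0.915) did not change, and those against CHRNA4 (−0.167 and −0.507) hardly did. Their adjusted p rose to 0.0514 because the 2 against CHRNA2, adjusted together with them, no longer had the smallest p. Comparisons without overlap were also counted with every other probe set of the array in place of the partner. The brighter CHRNB2 probe set was lower without overlap relative to 7.82% of them, and relative to 11.1% of those that were not dim. The dimmer one was lower without overlap relative to 16.5% and 25.6%.

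**Figure D3:**
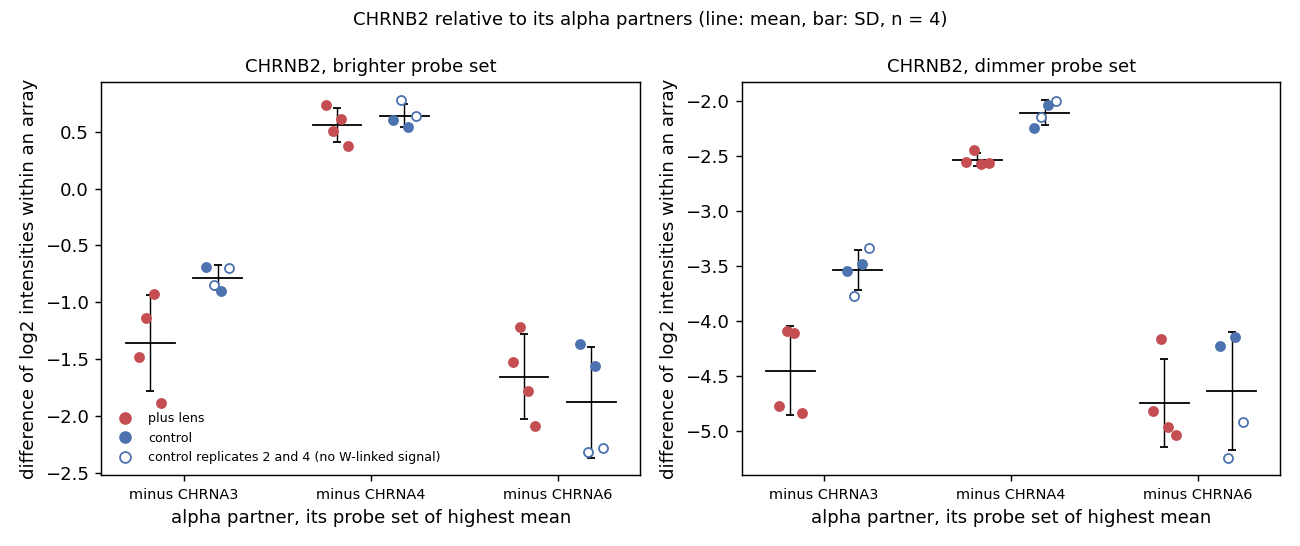
Log2 intensity of CHRNB2 minus that of an alpha partner within each array (vertical axis), positive lens-treated chicks left of control chicks, for the brighter (left panel) and the dimmer (right panel) CHRNB2 probe set, with the mean as a line and the SD as a bar (n = 4 each). Each partner is shown by its probe set of highest mean, and the dim CHRNA2 is left out. The groups are apart for CHRNA3 in both panels and for CHRNA4 in the right panel, and overlap for CHRNA6 in both.

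CHRNA3, an alpha subunit of ganglion-type receptors, was the one measurable subunit with a higher mean in positive lens-treated chicks. It measured 8.95, 8.95, 8.61 and 9.41 in positive lens-treated chicks and 8.43, 8.61, 8.96 and 8.61 in control chicks. The groups overlapped, and of the positive lens-treated chicks chick 4 alone lay above every control chick. On the log2 scale the difference was 0.33 (SE 0.19, 95% interval −0.12 to 0.78), and 0.28 (SE 0.27) without control chicks 2 and 4. Without positive lens-treated chick 4 alone it was 0.18.

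Relative to CHRNA3, the brighter CHRNB2 probe set was −1.48, −1.14, −0.93 and −1.89 in positive lens-treated chicks and −0.69, −0.85, −0.90 and −0.70 in control chicks. The groups did not overlap, although positive lens-treated chick 3, at −0.926, came close to control chick 3, at −0.899. The difference was −0.58 (SE 0.22), and −0.57 without control chicks 2 and 4. For the dimmer CHRNB2 probe set it was −0.92 (SE 0.22), and −0.94 without those 2 chicks.

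CHRNA4, the usual partner of CHRNB2 in brain, had its lowest and its highest value in the same chicks as CHRNB2. The brighter CHRNA4 probe set measured 6.73, 7.31, 7.07 and 7.15 in positive lens-treated chicks and 7.14, 6.98, 7.52 and 7.27 in control chicks. It was lowest in positive lens-treated chick 1 and highest in control chick 3, and the groups overlapped. Its log2 fold change was −0.16 (SE 0.16, 95% interval −0.54 to 0.22), and −0.27 (SE 0.20) without control chicks 2 and 4. It was −0.05 without positive lens-treated chick 1 and −0.065 without control chick 3. Over the 8 arrays it had an r of 0.843 with the brighter and 0.871 with the dimmer CHRNB2 probe set (exact permutation p = 0.0112 and 0.00662, adjusted over 8 relations 0.0298 and 0.0265). Spearman's rho was 0.762 and 0.786 (exact permutation p = 0.0368 and 0.0279, both 0.098 when adjusted). Without positive lens-treated chick 1 and control chick 3 r was 0.427 and 0.504, so the relation over all 8 rested on these 2 chicks. The deviations from the group means had an r of 0.868 and 0.968 over all 8 arrays, these 2 chicks included.

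The change of CHRNB2 relative to CHRNA4 depended on which probe sets were used. With the mean of both CHRNA4 probe sets the difference was −0.17 for the brighter CHRNB2 probe set (SE 0.05) and −0.51 for the dimmer one (SE 0.13). The dimmer CHRNA4 probe set carried no signal above background, so that mean holds only part of the CHRNA4 differences. With the brighter CHRNA4 probe set alone, the brighter CHRNB2 probe set gave 0.556 ± 0.151 in positive lens-treated chicks and 0.642 ± 0.099 in control chicks (SD, n = 4 each), with overlap and a difference of −0.09 (SE 0.09, exact permutation p = 0.371, adjusted 0.478). The dimmer CHRNB2 probe set gave −2.53 ± 0.06 in positive lens-treated chicks and −2.11 ± 0.11 in control chicks, without overlap and with a difference of −0.43 (SE 0.06). Without control chicks 2 and 4 these differences were −0.02 and −0.39.

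CHRNA2 was dim, so the difference of CHRNB2 relative to it (−0.48 for the brighter and −0.82 for the dimmer probe set) holds the CHRNB2 difference and the spread of a background signal. Positive lens-treated chick 2, at 3.83, accounted for most of the spread of CHRNA2. CHRNA2 itself had a log2 fold change of 0.23 (SE 0.17), of 0.06 without that chick and of 0.26 without control chicks 2 and 4.

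CHRNA6, an alpha subunit best known from ganglion cell axons and dopamine neurons of mammals, lies on the Z chromosome. It measured 8.99, 9.03, 9.46 and 9.61 in positive lens-treated chicks and 9.12, 10.07, 9.63 and 10.19 in control chicks. The 2 highest values were those of control chicks 2 and 4, both above every other chick. Between groups it differed by −0.48 (SE 0.27, 95% interval −1.13 to 0.18) over all chicks and −0.10 (SE 0.26) without control chicks 2 and 4. The change of the brighter CHRNB2 probe set relative to CHRNA6 turned its sign with these chicks, at 0.23 (exact permutation p = 0.457) with all chicks and −0.19 without the 2 control chicks. For the dimmer one it was −0.11 (exact permutation p = 0.83) with all chicks and −0.56 without the 2.

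CHRNB3, the accessory subunit that neighbours CHRNA6 on the Z chromosome in the RefSeq annotation, measured 10.95, 11.08, 10.76 and 10.76 in positive lens-treated chicks and 11.10, 11.47, 10.90 and 11.11 in control chicks. Control chicks 2 and 4 were again the highest, although control chick 4 was above control chick 1 by only 0.01. CHRNB3 had a log2 fold change of −0.26 (SE 0.14) over all chicks and −0.11 (SE 0.12) without control chicks 2 and 4. CHRNA8, also on Z, had 11.53, 11.35, 11.15 and 11.01 in positive lens-treated chicks and 11.42, 11.29, 11.18 and 11.48 in control chicks. Its difference between groups was −0.08 (SE 0.13), and −0.04 without the 2 control chicks. The control range lay inside that of the positive lens-treated chicks, since the lowest and the highest value both came from positive lens-treated chicks.

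The 3 Z-linked subunits were set beside all Z-linked probe sets that were not dim. Control chicks 2 and 4 minus the other 6 chicks gave a median of 0.48 over 615 Z-linked probe sets, with quartiles of 0.21 and 0.78, and of −0.03 over 13826 autosomal ones, with quartiles of −0.13 and 0.07. The difference was 0.82 for CHRNA6, 0.37 for CHRNB3 and 0.11 for CHRNA8. Of the Z-linked probe sets, 77.4% had a smaller difference than CHRNA6, 39.8% a smaller one than CHRNB3 and 17.6% a smaller one than CHRNA8. The median log2 fold change between positive lens-treated and control chicks over the same Z-linked probe sets was −0.23 with all chicks and 0.03 without control chicks 2 and 4. Among autosomal members the difference between control chicks 2 and 4 and the other 6 ran from −0.28 for CHRNA3 to 0.30 for the dimmer CHRNB2 probe set. The other 6 include all 4 positive lens-treated chicks, so a difference between groups enters these values. Against control chicks 1 and 3 alone, CHRNA3 was at −0.09 and the dimmer CHRNB2 probe set at −0.14. CHRNA6 and its neighbour CHRNB3 had an r of 0.354 over the 8 arrays (exact permutation p = 0.405, adjusted over 8 relations 0.539) and a rho of 0.333 (exact permutation p = 0.428, adjusted 0.528). Without the 2 chicks farthest from the median r was 0.316.

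**Figure D4:**
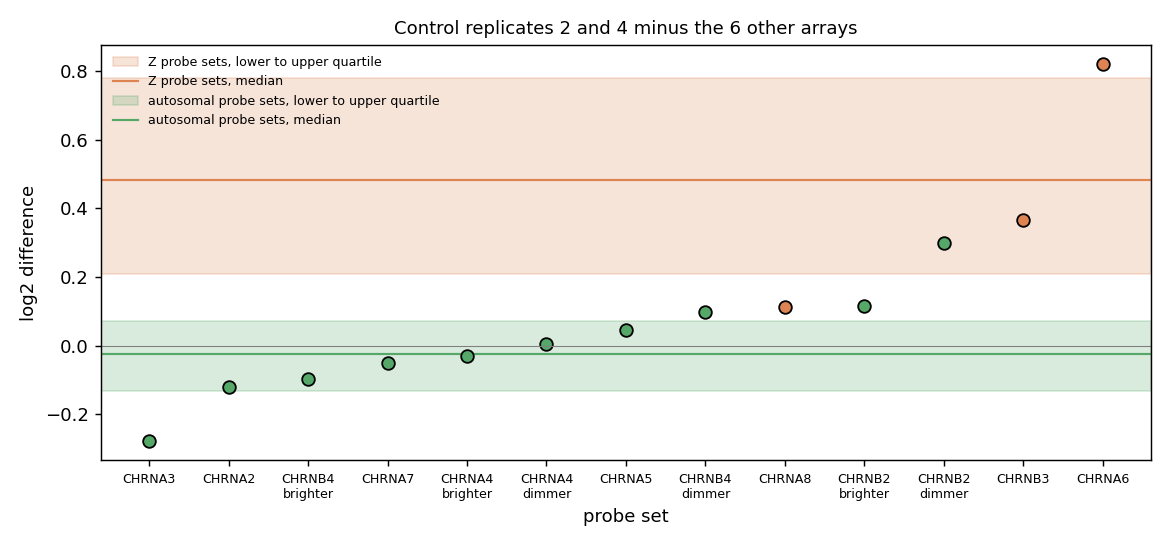
Difference of log2 intensities (vertical axis) between control chicks 2 and 4 and the mean of the 6 other chicks for each of the 13 probe sets, Z-linked in orange and autosomal in green. Lines give the median, and bands run from the lower to the upper quartile, of all Z-linked and all autosomal probe sets that were not dim. CHRNA6 lies at 0.82, above the upper quartile of 0.78 of the Z-linked probe sets.

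CHRNB4, the other beta subunit that binds acetylcholine together with an alpha subunit, had a pair of probe sets with an r of 0.182 over the 8 arrays (exact permutation p = 0.664, adjusted over 8 relations 0.664) and a rho of 0.310 (exact permutation p = 0.462, adjusted 0.528). Without the 2 chicks farthest from the median r was 0.189. The dimmer one measured 7.45, 7.35, 7.56 and 7.80 in positive lens-treated chicks and 7.90, 7.80, 7.98 and 7.74 in control chicks. Of the 4 positive lens-treated chicks 3 lay below every control chick. Its log2 fold change was −0.32 (SE 0.11, 95% interval −0.57 to −0.06), with an unadjusted p of 0.0213 and an adjusted p of 0.979, and it was −0.40 (SE 0.14) without control chicks 2 and 4. The brighter one measured 8.26, 8.53, 8.31 and 8.28 in positive lens-treated chicks and 8.60, 8.17, 8.53 and 8.47 in control chicks. Control chick 2 was the lowest of all 8, and the log2 fold change was −0.10 (SE 0.11) with it and −0.22 (SE 0.09) without control chicks 2 and 4.

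The removal of control chicks 2 and 4 changed the count of members whose groups did not overlap. It was then 4 of 13, with the dimmer CHRNB2 and both CHRNB4 probe sets lower and the dim CHRNA2 higher in positive lens-treated chicks. For the brighter CHRNB4 probe set the groups nearly touched, with positive lens-treated chick 2 at 8.529 and control chick 3 at 8.531. The same held for CHRNA2, with positive lens-treated chick 1 at 3.153 and control chick 3 at 3.148. The background was 13.8% of all probe sets in either direction and 3.98% for lower values. Groups of 4 against 2 chicks separate more often than 4 against 4. Both shares include the dim probe sets, and none was counted for those that were not dim, to which the lower members belong.

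CHRNB4 neighbours CHRNA3 and CHRNA5 on chromosome 10, and these 3 subunits often share receptors in ganglia. CHRNA5, an accessory subunit, measured 7.58, 7.44, 7.51 and 7.47 in positive lens-treated chicks and 7.92, 7.49, 7.22 and 7.65 in control chicks. All positive lens-treated values lay inside the control range, and the SD was 0.06 in positive lens-treated and 0.29 in control chicks. This gave a log2 fold change of −0.07 (SE 0.14), and −0.07 (SE 0.20) without control chicks 2 and 4. The neighbours thus had differences of both signs, with CHRNA3 at 0.33 and the CHRNB4 probe sets at −0.10 and −0.32, and none passed the test.

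CHRNA7, a subunit of fast, calcium-permeable channels that alpha-bungarotoxin blocks, is also on chromosome 10. It measured 7.74, 7.39, 7.75 and 7.65 in positive lens-treated chicks and 7.34, 7.79, 8.07 and 7.43 in control chicks. All 4 positive lens-treated values lay inside the control range. The difference was −0.03 (SE 0.18, 95% interval −0.45 to 0.40), and −0.08 (SE 0.24) without control chicks 2 and 4. A 1.5-fold difference lay outside this interval in either direction. Among the 11 probe sets that were not dim, the same was true of CHRNA4, CHRNA5, CHRNA8, CHRNB3, the brighter CHRNB2 and both CHRNB4 probe sets. The intervals of CHRNA3, CHRNA6 and the dimmer CHRNB2 probe set held it in 1 direction. Those of CHRNB3 and the dimmer CHRNB4 probe set reached −0.58 and −0.57, just short of it. All these intervals are over 8 arrays, and none is given without control chicks 2 and 4.

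The subunits of muscle and hair cell receptors served as a comparison within the family. Of 7 listed genes 5 were on the array, with 6 probe sets, and none had a mean of at least 16. None passed the adjusted threshold or an unadjusted p under 0.05, and their median log2 fold change was 0.02. CHRNA1, the alpha subunit of the muscle receptor, was at 2.86 in positive lens-treated and 2.66 in control chicks by its brighter probe set, with a difference of 0.20 (SE 0.16). CHRNA9, an alpha subunit of hair cell receptors, was at 2.76 in positive lens-treated and 2.65 in control chicks, with a difference of 0.11 (SE 0.09), and CHRNG, a subunit of the embryonic muscle receptor, had a difference of 0.002 (SE 0.007).

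Genes that make, carry and break down acetylcholine had 17 probe sets of 7 genes, 7 of them not dim. None passed the adjusted threshold, and at an unadjusted p under 0.05 there was 1 higher and 0 lower, beside 2.49% and 2.03% of all probe sets. The one was COLQ, the collagen tail of acetylcholinesterase, at 0.20 (SE 0.07), with a dim signal of 3.10 in positive lens-treated and 2.90 in control chicks. CHAT, the enzyme that makes acetylcholine and the marker of starburst amacrine cells, measured 5.77, 7.05, 7.50 and 7.82 in positive lens-treated chicks and 5.68, 3.38, 5.92 and 6.58 in control chicks. The groups overlapped, and control chick 2 was far below the rest. Its log2 fold change was 1.65 (SE 0.79) with an unadjusted limma p of 0.0758, and 1.24 without control chicks 2 and 4. Without control chick 2 alone it was 0.98. The unadjusted limma p was 0.0419 without positive lens-treated chick 1 and 0.0466 without control chick 4. It was 0.0935 to 0.166 with any other single chick left out, and 0.11 without control chicks 2 and 4. A further CHAT probe set that was not dim had a log2 fold change of 0.98 (SE 0.54, unadjusted limma p of 0.114), and of 0.51 without control chick 2. BCHE, butyrylcholinesterase, was at 0.16 (SE 0.14). The 3 markers of cholinergic amacrine cells were CHAT, SLC18A3 and SLC5A7. Their summed intensity was 327 to 565 in positive lens-treated chicks and 249 to 379 in control chicks. Between groups SLC18A3 differed by 0.055 (SE 0.155) and SLC5A7 by −0.050 (SE 0.171), both by less than their SE, unlike CHAT. Without control chicks 2 and 4 SLC18A3 was at −0.078 and SLC5A7 at −0.101. The sum without CHAT was not computed, so a shift of the whole cell class cannot be read from these ranges. The summed intensity of the ganglion cell markers, 6 of 8 genes, was 22702 to 28519 in positive lens-treated chicks and 21846 to 25783 in control chicks. The 4 markers of amacrine cells in general summed to 15185 to 16001 in positive lens-treated chicks and 14869 to 15564 in control chicks. All 3 pairs of ranges overlapped. Among those 4 amacrine markers the glycine transporter SLC6A9 differed by −0.19 (SE 0.04, unadjusted limma p of 0.00218) and GAD1, which makes GABA, by 0.10 (SE 0.025, unadjusted limma p of 0.00665), and neither passed the adjusted threshold. Of the ganglion cell markers POU4F2 was dim in all chicks. The part of these cells in the CHRNB2 values was not tested.

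Genes for the assembly and regulation of nicotinic receptors had 23 probe sets of 11 genes, of 14 listed, and 13 were not dim. None passed the adjusted threshold, with 1 higher and 0 lower at an unadjusted p under 0.05, beside 2.49% higher and 2.03% lower of all probe sets. It was YWHAH, a 14-3-3 protein that binds CHRNA4, at 0.11 (SE 0.05). RIC3, a chaperone of CHRNA7, was at 0.28 (SE 0.20) by its brightest probe set, and LYPD6, a regulator of the Ly6 family, was dim at −0.11 (SE 0.08). The median log2 fold change was 0.00 for both of these lists.

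The genes whose values followed CHRNB2 most closely over the 8 arrays were searched among 14613 probe sets that had a single gene symbol and were not dim. For the brighter CHRNB2 probe set they were FYN (r = 0.983), CAMK2G (r = 0.975) and ACOT7 (r = 0.968), with log2 fold changes of −0.12, −0.17 and −0.28. For the dimmer one they were PPP3CB (r = 0.955), TUBA1A (r = 0.951) and SEH1L (r = 0.941), with log2 fold changes of −0.22, −0.12 and −0.23. These are the highest of many values over 8 arrays that share the same chicks and are given as a description. Of the other subunits the brighter CHRNA4 probe set was nearest to both CHRNB2 probe sets, with r of 0.843 and 0.871. The brighter CHRNB4 probe set came next with r of 0.609 and 0.614. How many probe sets of other genes reached such values was not counted.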

How the data were processed

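Retinal mRNA of 4 positive lens-treated and 4 control chicks was measured on 8 arrays. Each deposited intensity was calculated by the authors with GC-RMA, using Microarray Suite for the scans and ArrayAssist for the analysis, and is linear. The GC-RMA version was not given in the sources here. The log2 of each value was used without further scaling. After removal of 96 Affymetrix controls from 38535 probe sets, 38439 remained. The platform annotation named 27168 of them with a single symbol and 177 with several, and 11094 had no name. RefSeq (assembly GRCg7b) gave chromosomes and neighbours to 26853 probe sets through their gene ID, and its coordinates were not printed. Sequences were not used here.

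The main comparison was a limma 3.58.1 fit (R 4.3.3) without a block over all probe sets, with Benjamini-Hochberg adjustment. Calls needed a fold change of 1.5 and an adjusted p below 0.06, the limits of the study's methods, and the methods' t-test was run beside it. The 9 CHRNB2 comparisons used exact two-sided permutation tests over 70 relabelings (scipy 1.17.1) and a threshold of 0.05 after adjustment. Each p of a group comparison sets the difference against the spread between chicks, which limma draws in part from all probe sets. It cannot separate lens treatment from fluidics station and scan order, and 4 arrays a group limit the precision. The fit was tested on simulated data. Alternatives were other tests, array weights, scalings, a filter or floor at 16, a pseudocount of 16, a replicate block and omitted chicks. Every member is named, and up to 3 genes of smallest p per pathway list. The members and lists were chosen with earlier results of these data known.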

Additional observations from a re-analysis of the deposited data

Results flagged for a closer look

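In 1 of 44 groups of 4 values that were screened (13 probe sets and 9 CHRNB2 comparisons in each of 2 groups), a single chick stood far from the others of its group. Positive lens-treated chick 2 had a CHRNA2 log2 intensity of 3.833, while the 3 other positive lens-treated chicks lay between 3.153 and 3.158, so that the gap was 0.993 of the range which is past Dixon's 95% critical value. All these values are below an intensity of 16, and chance flags about 5% of groups.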

How the results depend on the processing

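The count of 0 of 13 subunit probe sets past the adjusted threshold was the same under all 19 alternatives. That rule called 0 of all 38439 probe sets in the main fit and at most 3 under any alternative, so the member count could hardly differ. The count of 1 past the unadjusted threshold was 0 with array weights, with log2(intensity + 16) and without control chicks 2 and 4, and 0 to 2 when single chicks were left out. It was 0 without positive lens-treated chick 1 or 3 or control chick 3 or 4, and 2 without control chick 1, when CHRNA6 (−0.69) joined the dimmer CHRNB2 probe set. Over all probe sets that rule called 162, and 287 with array weights, 62 with log2(intensity + 16), 333 without control chick 1 and 246 without control chick 3. The cause of these shifts over all probe sets was not tested. As to the member count, the dimmer CHRNB2 probe set lay at −0.588 with all chicks, only just past 1.5-fold. It fell short at −0.526 with array weights, −0.376 with log2(intensity + 16) and −0.577 to −0.466 without the single chicks named above. Without control chicks 2 and 4 it was −0.657, at an unadjusted limma p of 0.0555. The count of members without overlap, 0, was 2 after quantile normalization (6.7% of all probe sets), 4 without control chicks 2 and 4 (13.8%), and 0 to 2 when single chicks were left out (4.39% to 6.29%), beside 2.86% with all chicks. Signs of small differences turned: the dim CHRNA4 probe set was at −0.01 after median centring and at −0.001 to 0.004 over single omissions, CHRNA7 was at 0.069 with array weights and at −0.13 to 0.11 over single omissions, CHRNA5 at −0.186 to 0.046 and CHRNA8 at −0.17 to 0.001.

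Of the CHRNB2 comparisons past 0.05, several lost the call by construction. Without control chicks 2 and 4 the smallest possible exact permutation p is 0.133. The values were then 0.372 between the CHRNB2 probe sets, −0.544, −0.566 and −0.154 for the brighter one minus CHRNA2, CHRNA3 and CHRNA4, and −0.916, −0.938 and −0.526 for the dimmer one. Minus CHRNA6 the brighter one turned to −0.188. With 1 chick left out the smallest p is 0.0571, and the values were 0.275 to 0.397 between the CHRNB2 probe sets, −0.558 to −0.375, −0.72 to −0.399 and −0.194 to −0.123 for the brighter one minus CHRNA2, CHRNA3 and CHRNA4, and −0.938 to −0.718, −1.036 to −0.788 and −0.578 to −0.433 for the dimmer one, which minus CHRNA6 ran from −0.315 to 0.051. A pairing of the chicks by replicate number was little seen in the values. Deviations of same-numbered chicks correlated by −0.016 to 0.131, and 1 of 4 correlated best with its own number. Same-numbered arrays did share a module number on their fluidics stations. With the replicate block limma called 145 probe sets at the unadjusted threshold, and the CHRNB2 comparisons kept their values (0.340, −0.481, −0.576, −0.168, −0.821, −0.915 and −0.507) at an adjusted p of 0.161, since 4 pairs cannot give an exact p under 0.125.

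With intensities below 16 raised to 16, the CHRNB2 probe sets differed by 0.340, the brighter one minus CHRNA2, CHRNA3 and CHRNA4 gave −0.248, −0.576 and −0.167, and the dimmer one gave −0.588, −0.915 and −0.507, with adjusted p of 0.0514 to 0.11. Apart from those against CHRNA2, these values hardly changed, and their adjusted p rose to 0.0514 through the adjustment they share with the CHRNA2 comparisons. With log2(intensity + 16) the CHRNB2 probe sets differed by 0.145, and the dimmer one minus CHRNA6 turned to 0.090. With the brighter CHRNA4 probe set alone, the brighter CHRNB2 minus CHRNA4 was −0.086. With log2(intensity + 16) the difference between groups was −0.231 for the brighter and −0.376 for the dimmer CHRNB2 probe set, against −0.248 and −0.588 without the added 16. That of CHRNA6 was −0.466, against −0.475. The CHRNA4 difference was −0.163 by its brighter and 0.002 by its dimmer probe set, so the mean of both held only part of it.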
